A study of Rattus norvegicus with 14 samples.

Results

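Persistent liver foci of rats given rapamycin were compared with AAF/PH liver, the tissue in which oval cells expand. The comparison used 8 of the 14 arrays of the series and 6 of its 12 animals, 3 with rapamycin foci and 3 with AAF/PH liver, and covered the 14497 genes that had a probe set of their own among the 28826 probe sets of the array. All animals were male F344 rats, an inbred strain. AAF/PH rats carried a 2.5 mg pellet of 2-acetylaminofluorene (AAF) with a release time of 14 days from day 1, had partial hepatectomy on day 7 and were killed on day 14. The model of liver cancer that gave the foci is known as Solt-Farber. Those rats received diethylnitrosamine at 200 mg/kg on day 1, the same AAF pellet on day 14, and on day 21 partial hepatectomy with a 21-day pellet that released rapamycin at 2.5 mg/kg per day. They were killed on day 70, after the rapamycin pellet had run its time. Another group had the same foci with a placebo pellet (3 animals), and normal liver came from 3 unmanipulated rats.

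AAF and partial hepatectomy were thus shared by both groups compared. Diethylnitrosamine, rapamycin, the times since the AAF pellet and since hepatectomy, and the choice of region all differed between them. AAF/PH rats were killed within the 14-day release time of their AAF pellet, and rats with foci long after it had ended. The parts of these differences cannot be told apart from these groups alone. Placebo foci differed from rapamycin foci by the pellet only and are the comparison for rapamycin itself. Foci were captured by laser from sections of fixed, paraffin-embedded liver as lesions positive for the placental glutathione S-transferase (GSTP), so the level of its gene, Gstp1, describes the capture and is no result. The regions captured in AAF/PH liver are labelled only as oval cells. A captured region holds several cell types, and fewer cells of a type cannot be told apart from less RNA per cell.

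Oval cells are progenitors that spread from the bile ductules when AAF keeps hepatocytes from dividing after hepatectomy. They carry both ductal and fetal liver markers and are accompanied by stellate cells and new matrix. Foci are clonal groups of altered hepatocytes that resist the toxic action of AAF. They are known for enzymes of drug conjugation and glutathione supply, many of them under the transcription factor NRF2. Rapamycin inhibits mTOR, a kinase that links nutrients and growth factors to protein and lipid synthesis.

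Rapamycin animal 3 stood apart from the others of its group. Its 3 arrays, a pair from the same RNA and another from a new laser capture, correlated with each other at r between 0.970 and 0.975 over genes. The interquartile range of log2 levels over genes was 1.57 to 1.71 on these 3 arrays and 1.98 to 2.80 on the 11 others. On the first principal component the animal lay at 54.5, beside 30.6 to 46.3 for the AAF/PH livers and -11.9 and -19.7 for rapamycin animals 1 and 2. The 3 arrays were averaged into 1 animal, and results are also given without it. The median log2 level over 69 cytosolic ribosomal protein genes, relative to normal liver, was -1.08 in this animal and between -0.33 and 0.13 in rapamycin animals 1 and 2 and the AAF/PH livers. Whether RNA quality had a part in this was not tested.

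Of the 14497 genes, 580 (4.0%) passed the test between rapamycin foci and AAF/PH liver, 310 higher (2.14%) and 270 lower (1.86%) in the foci. The test was limma's moderated test at an adjusted p under 0.05 (Benjamini-Hochberg over all genes), called the test throughout, and log2 differences are given ± standard error with 3 animals a group. At least 2-fold differences made up 439 of the 580, with 272 higher and 167 lower, and 76 genes were at least 4-fold higher and 28 at least 4-fold lower. The animals of both groups did not overlap for 567 of the 580, where 13.5% of all genes had no overlap. The median difference over all genes was -0.01, and the median size of a difference 0.17. An unadjusted p under 0.05 was reached by 1913 of the 14497 genes, the background for each such count of list members. With rapamycin animal 3 left out the test called 2056 genes, 1506 higher (10.4% of all genes) and 550 lower (3.79%), and the 580 were all among them with the same direction. These shares are the background for each count of list members without that animal. Without AAF/PH animal 2, AAF/PH animal 3 or rapamycin animal 1 it called 358, 295 and 337. A fit of these 2 groups alone called 204 genes, 110 higher (0.759% of all genes) and 94 lower (0.648%). It called higher 7 of 27 NRF2 targets, 5 of 22 genes of fatty acid synthesis and 0 of 20 of cholesterol synthesis. Of 26 genes of stellate cells and matrix it called 6 lower.

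**Figure D1:**
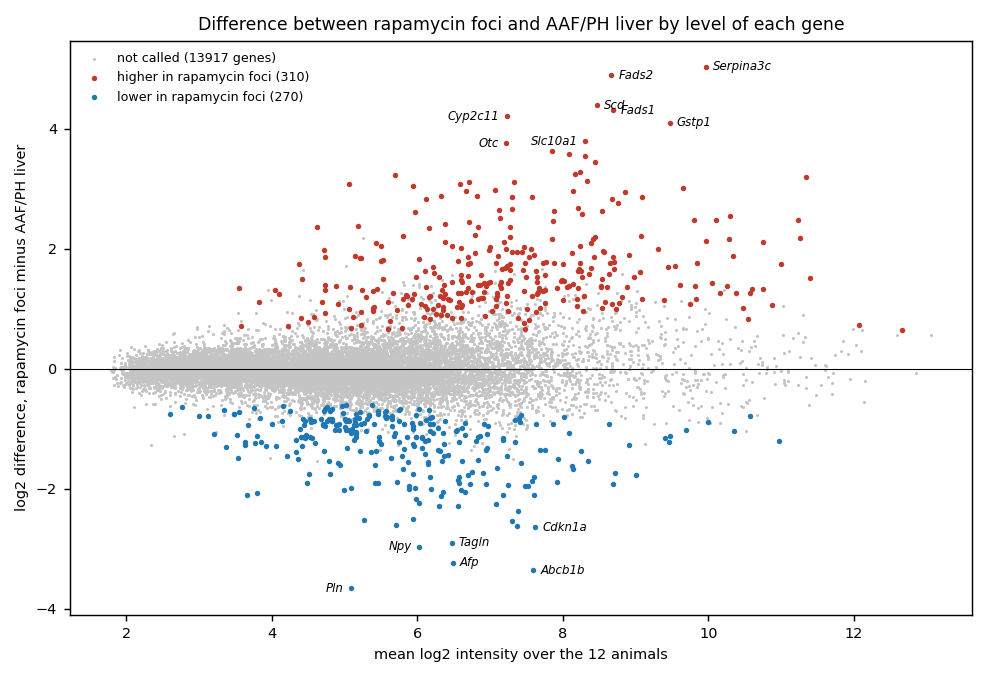
Log2 difference between rapamycin foci and AAF/PH liver (vertical axis) against the mean log2 intensity over the 12 animals (horizontal axis) for each of 14497 genes, with called genes in colour and some of the largest differences named. The 310 genes called higher reach 5.03 (Serpina3c), and the 270 called lower reach -3.66 (Pln).

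**Figure D2:**
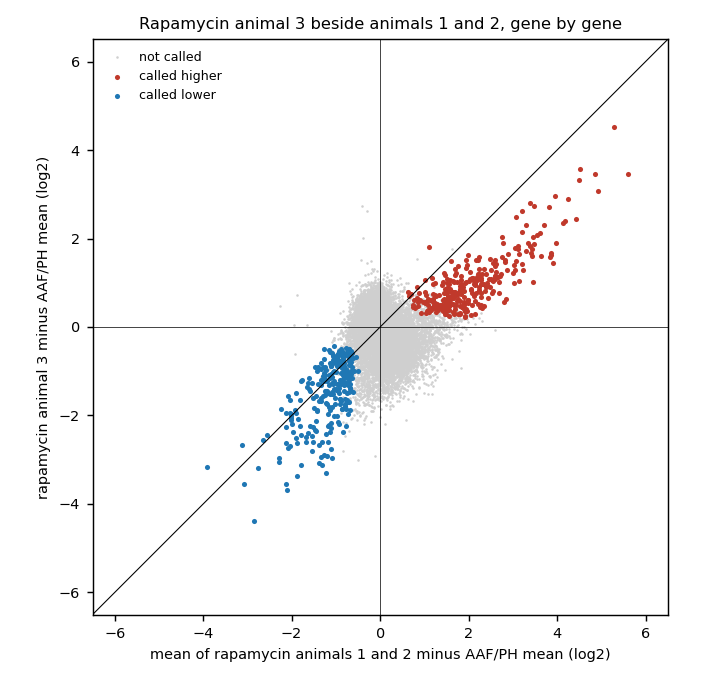
Each of 14497 genes by its log2 distance from the AAF/PH mean in rapamycin animals 1 and 2 (horizontal axis, mean of both) and in rapamycin animal 3 (vertical axis), with the line of equal distance. Among the 580 called genes animal 3 lay between the AAF/PH mean and the other animals in 409 and beyond them in 171.

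The plot of rapamycin animal 3 shows how its levels bear on the calls. In 303 of the 310 genes called higher it had the lowest level of the 3 rapamycin animals. Among the 270 genes called lower it had the lowest level, furthest from AAF/PH liver, in 152 and the highest in 75. Over the 580 genes it covered a median 68.5% of the distance between the AAF/PH mean and the mean of rapamycin animals 1 and 2, and in 0 of them did it lie on the other side of the AAF/PH mean. These counts describe genes chosen with this animal in the test.

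Gstp1 read 183, 152 and 216 intensity units in the AAF/PH livers and 3827, 4363 and 1814 in the rapamycin foci, with 3743 to 4639 in the placebo foci. All 3 rapamycin animals were far above the AAF/PH range, animal 3 at less than either of the others.

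Genes of glutathione synthesis and detoxification known as NRF2 targets were among those higher in rapamycin foci than in AAF/PH liver. The activity of NRF2 itself was not tested. Of 27 measured NRF2 targets 12 rose and 0 fell, with a list median of 1.31, beside 2.14% of all genes called higher and a median of -0.01. Gclm encodes the modifier subunit of glutamate-cysteine ligase, the enzyme that starts glutathione synthesis. It read 75.0, 38.8 and 68.4 in the AAF/PH livers and 921, 1136 and 298 in the rapamycin foci, without overlap, and rose by 3.54 ± 0.39 (adjusted p = 0.0001). The catalytic subunit, Gclc, read 208, 93.9 and 121 against 1138, 1489 and 437 and rose by 2.76 ± 0.37. Both subunits were thus higher in each rapamycin animal than in any AAF/PH liver, least so in animal 3. Normal liver held 186 to 222 units of Gclm, so the AAF/PH livers were below it and the foci above.

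Nqo1, a quinone reductase and a standard NRF2 target, also rose. It read 22.9, 31.2 and 24.1 in the AAF/PH livers, which overlapped normal liver at 25.2 to 31.3, and 306, 447 and 77 in the rapamycin foci (3.08 ± 0.45). Akr7a3, an aldo-keto reductase that detoxifies aflatoxin aldehyde, read 194, 149 and 200 against 1911, 2109 and 658 (2.95 ± 0.33). Slc7a11, the cystine importer that supplies cysteine for glutathione, read 14.1, 7.53 and 7.55 against 103, 186 and 25.4 (3.08 ± 0.53). Animal 3 had the lowest value of its group in each, yet lay above every AAF/PH liver. Leaving it out, 22 of the 27 NRF2 targets rose and 1 fell, with a median of 1.62.

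The promoter of Gclm and that of Ugdh, which makes the sugar donor for glucuronide conjugation, are shown because they held the core of the antioxidant response element, the DNA site through which NRF2 acts. The other 9 of the 11 called NRF2 targets with a promoter in the RefSeq table (build GRCr8) did not hold it. The core was searched as TGACNNNGC on both strands in the 250 bases before and 50 after the gene start, and it is in capitals. The promoter of Nqo1, with 0 matches, is given for comparison. Sequences run 5′ to 3′ on the strand of the gene, for Gclm chr2:213031885-213032184 on the plus strand, for Ugdh chr14:43202268-43202567 on the plus strand and for Nqo1 chr19:52220218-52220517 on the minus strand.
Gclm: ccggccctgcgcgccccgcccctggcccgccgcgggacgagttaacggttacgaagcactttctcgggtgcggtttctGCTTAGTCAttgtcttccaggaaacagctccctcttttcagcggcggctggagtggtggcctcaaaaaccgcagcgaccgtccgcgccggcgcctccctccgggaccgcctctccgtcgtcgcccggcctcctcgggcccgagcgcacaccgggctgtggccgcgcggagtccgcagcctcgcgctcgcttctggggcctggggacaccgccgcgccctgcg
Ugdh: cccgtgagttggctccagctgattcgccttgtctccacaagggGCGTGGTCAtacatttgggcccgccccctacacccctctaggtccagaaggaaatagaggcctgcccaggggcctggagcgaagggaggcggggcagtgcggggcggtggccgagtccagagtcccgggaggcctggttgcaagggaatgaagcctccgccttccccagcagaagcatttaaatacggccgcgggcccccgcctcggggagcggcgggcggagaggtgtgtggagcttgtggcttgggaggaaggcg
Nqo1: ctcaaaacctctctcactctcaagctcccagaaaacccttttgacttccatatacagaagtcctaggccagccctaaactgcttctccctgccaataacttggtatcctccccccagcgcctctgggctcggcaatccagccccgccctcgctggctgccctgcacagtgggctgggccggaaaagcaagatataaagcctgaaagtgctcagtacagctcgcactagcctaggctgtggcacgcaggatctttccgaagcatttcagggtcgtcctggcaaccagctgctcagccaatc
In both promoters the core lay on the strand opposite to the gene. The first capital as printed, which pairs with the last letter of the core, lay 172 bases before the start of Gclm and 207 before that of Ugdh. Ugdh read 106, 65.5 and 110 in the AAF/PH livers and 711, 1031 and 222 in the rapamycin foci, and rose by 2.58 ± 0.41 (adjusted p = 0.0017). It is named because its promoter held the core. The core was in 12.1% of 33469 promoters of this length, and in 2 of the 11 here. The matches describe the letters of these windows only.

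Glutathione S-transferases other than Gstp1, the enzymes that attach glutathione to drugs and lipid aldehydes, rose in 4 of 17 cases and fell in 0, with a median of 0.72. Gsta4, which acts on lipid peroxidation products, read 74.2, 53.2 and 33.4 in the AAF/PH livers and 529, 580 and 103 in the rapamycin foci (2.63 ± 0.50). The microsomal Mgst2 read 442, 286 and 295 against 2000, 2303 and 674 (2.13 ± 0.36). Gstt1 read 102, 66.0 and 67.7 against 294, 315 and 116 (1.52 ± 0.31). In these 3 genes animal 3 was the nearest to the AAF/PH range, and none of the rapamycin animals overlapped it. The test called 13 of the 17 without rapamycin animal 3, and 2, 1, 2 and 2 without AAF/PH animal 2, AAF/PH animal 3, rapamycin animal 1 and rapamycin animal 2. Gstt1 lost its call in those 4 cases (adjusted p = 0.050 to 0.068), and Gsta4 without AAF/PH animal 3 (adjusted p = 0.051).

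Of 15 genes known as markers of foci and liver tumours 6 rose, Gstp1 among them, and 5 fell, so that the list did not move one way (median 0.08). Aldh3a1, an aldehyde dehydrogenase that is nearly silent in normal rat liver, read 13.8, 12.9 and 11.1 in the AAF/PH livers and 42.7, 58.4 and 38.7 in the rapamycin foci (1.87 ± 0.18). The members that fell were Afp, Cdh17, Lcn2, Cd44 and Prom1. Cd44, a hyaluronan receptor, read 88.7, 53.1 and 115 in AAF/PH liver and 31.6, 26.4 and 23.0 in the foci (-1.61 ± 0.26), and normal liver held 11.1 to 15.6. Both tissues thus had more Cd44 than normal liver, AAF/PH liver the most. Lcn2, an iron-sequestering secreted protein of inflammation, read 37.3, 54.2 and 57.6 against 16.6, 14.9 and 20.2 (-1.51 ± 0.22). The call of Prom1, a stem cell surface protein (-1.24 ± 0.26), was lost without rapamycin animal 1 or 2 (adjusted p = 0.063 and 0.056).

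Cdh17 and Crot were lower in rapamycin foci than in both normal and AAF/PH liver. Cdh17, a cadherin also known from intestinal epithelium, read 401 to 443 in normal liver, 257, 107 and 216 in AAF/PH liver and 44.7, 41.2 and 27.2 in the rapamycin foci. It fell by 2.3 ± 0.32 on the log2 scale against AAF/PH liver. Crot, the peroxisomal carnitine octanoyltransferase, read 298 to 350 in normal liver and 416, 299 and 364 in AAF/PH liver, where it did not pass the test against normal (0.14 ± 0.24). It read 89.7, 84.4 and 54.9 in the rapamycin foci and fell by 2.25 ± 0.24 against AAF/PH liver. Placebo foci read 18.6 to 37.1 for Cdh17 and 32.7 to 56.6 for Crot.

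**Figure D3:**
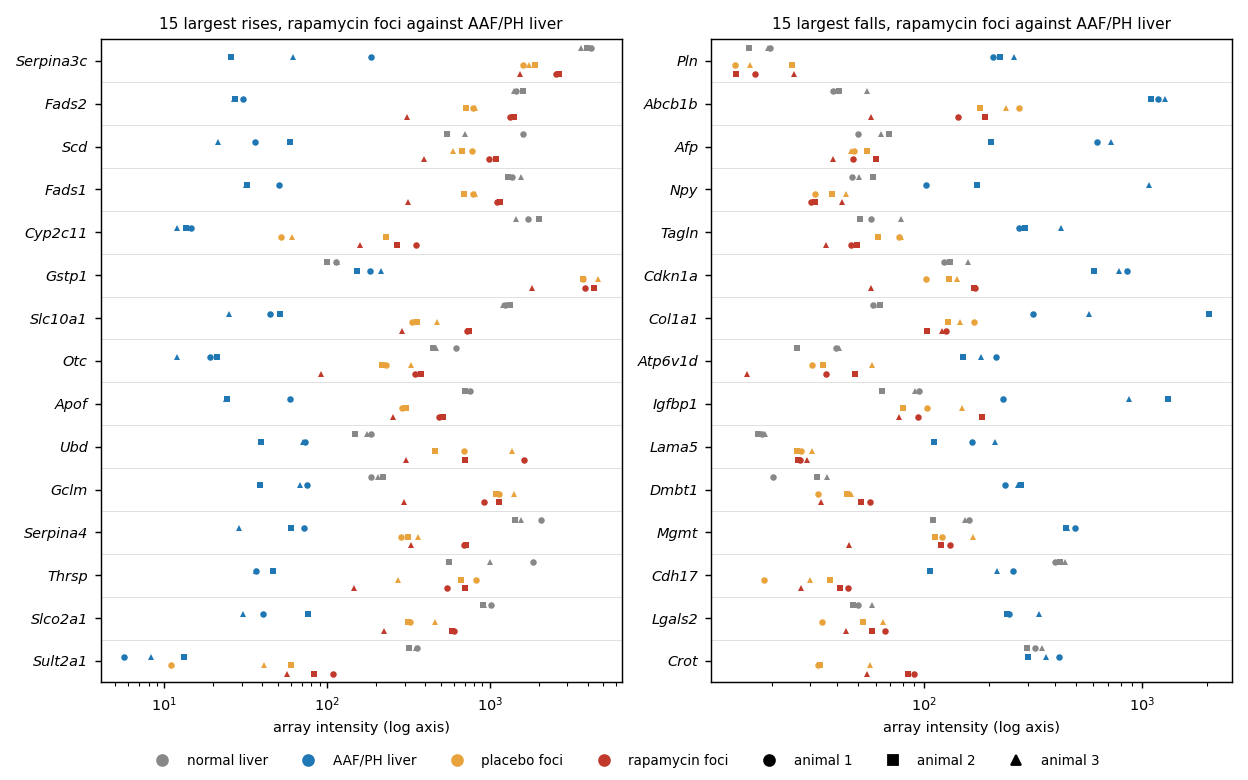
Array intensity (horizontal axis, log scale) in each of the 12 animals for the 15 genes with the largest rise (left) and the 15 with the largest fall (right) from AAF/PH liver to rapamycin foci, among called genes without overlap. Points are animals, colours are groups and shapes the animal's number. For Pln the rapamycin foci, at 13.7 to 25.5, sit with normal liver at 15.8 to 19.7, and for Fads2 the rapamycin foci at 308 to 1407 sit far above AAF/PH liver at 26.7 to 30.6.

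Fatty acid synthesis had the highest median among the metabolic lists. Of 22 genes of fatty acid synthesis and desaturation 10 rose and 1 fell, with a median of 1.21. Fads2 and Fads1, the desaturases that make long polyunsaturated fatty acids, stood among the largest rises of all genes. Fads2 read 30.6, 27.1 and 26.7 in the AAF/PH livers and 1328, 1407 and 308 in the rapamycin foci (4.89 ± 0.41, adjusted p = 1.3e-05). Fads1 read 50.8, 32.0 and 31.6 against 1102, 1157 and 313 (4.31 ± 0.38). In normal liver Fads2 lay at 1418 to 1597, so rapamycin animals 1 and 2 were near the normal level and the AAF/PH livers far under it.

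Scd, the stearoyl-CoA desaturase of monounsaturated fat, read 36.3, 58.9 and 21.3 in AAF/PH liver and 986, 1087 and 394 in the foci (4.39 ± 0.44). Thrsp, a nuclear protein that rises with lipogenesis, read 36.8, 46.3 and 36.8 against 549, 702 and 147 (3.27 ± 0.54). Acacb, which makes the malonyl-CoA that restrains fat oxidation, read 16.3, 23.3 and 18.2 against 138, 141 and 46.8 (2.35 ± 0.34). For all 3 the foci lay apart from the AAF/PH livers, with animal 3 nearest to them. Lpin1, a phosphatidate phosphatase that is also induced by fasting signals, went the other way. It read 184, 284 and 526 against 71.7, 206 and 34.5, with overlap, and fell by 1.92 ± 0.50 (adjusted p = 0.045). Its adjusted p was 0.123, 0.234 and 0.150 without AAF/PH animal 2, AAF/PH animal 3 and rapamycin animal 1. Of the 22 genes 20 rose without rapamycin animal 3, and 5 or 6 without any other single animal of the 2 groups.

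Cholesterol synthesis genes followed, with 8 of 20 higher, 0 lower and a median of 1.00. Dhcr7, the last reductase of the pathway, read 127, 79.3 and 110 in the AAF/PH livers and 645, 853 and 159 in the rapamycin foci (2.10 ± 0.47). Tm7sf2, a sterol reductase, read 92.0, 46.2 and 45.0 against 150, 182 and 123 (1.38 ± 0.27). Acat2 and Lss, a thiolase and lanosterol synthase, were higher by 1.25 ± 0.25 and 0.99 ± 0.22. In the fit of both groups alone 0 of the 20 passed, with an adjusted p of 0.117 for Dhcr7, 0.069 for Tm7sf2, 0.081 for Acat2 and 0.073 for Lss. Dhcr7 and Lss lost their call without AAF/PH animal 2, AAF/PH animal 3, rapamycin animal 1 or rapamycin animal 2 (adjusted p = 0.072 to 0.10), and Tm7sf2 without AAF/PH animal 2 or 3 (adjusted p = 0.051 and 0.059). The count was 16 without rapamycin animal 3, 5 without AAF/PH animal 1, 2 without AAF/PH animal 2, 1 without AAF/PH animal 3, and 2 without rapamycin animal 1 or 2.

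Fatty acid oxidation genes were split. Of 27 genes, 4 rose and 6 fell, with a median of -0.06. Cyp4a1, the omega-hydroxylase of fatty acids, read 470, 432 and 569 in AAF/PH liver and 121, 141 and 84.9 in the foci, and fell by 2.10 ± 0.22 (adjusted p = 6e-05). Eci1, a mitochondrial enoyl-CoA isomerase, read 346, 291 and 398 against 120, 134 and 93.4 (-1.58 ± 0.20), and Acot2, a mitochondrial thioesterase, fell by 1.67 ± 0.25. Both Cyp4a1 and Eci1 passed the test against normal liver as well, below it in the foci and above it in AAF/PH liver.

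Ehhadh, the peroxisomal bifunctional enzyme, did the reverse. It read 51.2, 32.8 and 49.2 in AAF/PH liver and 251, 277 and 113 in the foci (2.19 ± 0.32). Fabp1, the liver fatty acid binding protein, read 845, 684 and 698 against 2055, 2037 and 1344 (1.27 ± 0.20). Ppara, the receptor that induces these enzymes, was higher by 1.23 ± 0.26, and its adjusted p was 0.069 and 0.058 without AAF/PH animals 1 and 2. When rapamycin animal 3 was left out, 8 of the 27 rose and 7 fell and the median was 0.28, and without AAF/PH animal 1 or 2, 2 rose.

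Of 30 genes of mature hepatocytes, 11 rose and 1 fell, with a median of 0.48 against AAF/PH liver and -0.97 against normal liver. Otc, the urea cycle enzyme that makes citrulline, read 18.9, 21.2 and 11.9 in AAF/PH liver, 346, 378 and 91.5 in the foci and 445 to 616 in normal liver (3.76 ± 0.42). Apoc3, an apolipoprotein of triglyceride-rich particles, read 790, 552 and 552 against 4691, 4494 and 1948 (2.47 ± 0.30). Apoa1, the main protein of HDL, read 737, 943 and 693 against 3992, 5323 and 2127 (2.18 ± 0.27), with normal liver at 3044 to 3178.

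The defining markers moved less. Albumin (Alb), the main plasma protein, read 5020, 4307 and 4222 against 7607, 7542 and 6131 and was higher by 0.65 ± 0.16 (adjusted p = 0.032). Its adjusted p was 0.115 to 0.154 without AAF/PH animal 2, AAF/PH animal 3, rapamycin animal 1 or rapamycin animal 2. Transthyretin (Ttr) overlapped between the groups at 2758 to 3511 and 3489 to 5848 (0.65 ± 0.21, adjusted p = 0.12), and transferrin (Tf) differed by 0.55 ± 0.17 (adjusted p = 0.099). Tat, the tyrosine aminotransferase induced by glucocorticoids, read 715, 996 and 1226 against 364, 456 and 97.2 and fell by 1.92 ± 0.42. The adjusted p of Tat was 0.071 and 0.10 without AAF/PH animals 2 and 3, and its difference was -1.23 without rapamycin animal 3. Hepatocyte genes summed to 29971 to 33911 units in the AAF/PH livers, 51278 and 55209 in rapamycin animals 1 and 2, and 31241 in animal 3. Without animal 3, 19 of the 30 rose. The count of rises was 6 without AAF/PH animal 2, AAF/PH animal 3, rapamycin animal 1 or rapamycin animal 2, and 3 fell without rapamycin animal 2. Under quantile normalization 12 rose and 7 fell, beside 4.58% of all genes called higher and 5.18% called lower.

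Cytochrome P450 and sex-biased genes gave 10 rises and 3 falls among 29, with a median of 0.63. Cyp2c11, the P450 that marks adult male rat liver under pulsed growth hormone, read 1455 to 1999 in normal liver and 14.5, 13.6 and 12 in AAF/PH liver. It read 352, 267 and 159 in the rapamycin foci, above AAF/PH liver and below normal liver without overlap (4.21 ± 0.43 and -2.80 ± 0.43). Cyp2b2, the phenobarbital-inducible P450, read 24.7, 30.3 and 25.9 against 314, 162 and 150 (2.88 ± 0.31), with normal liver at 142 to 249, overlapping the foci. Cyp2a2, another male-biased P450, rose by 2.66 ± 0.30, and Sult2a1, a steroid and bile acid sulfotransferase, by 3.23 ± 0.48.

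The falls were Cyp4a1, described above, Cyp2e1 and Cyp4a3. Cyp2e1, the ethanol-oxidising P450 of pericentral hepatocytes, read 1961, 1824 and 1639 in AAF/PH liver and 1025, 1198 and 557 in the foci (-1.03 ± 0.25, adjusted p = 0.027). Its adjusted p was 0.105, 0.093 and 0.073 without AAF/PH animals 1, 2 and 3. Cyp4a3, also a fatty acid hydroxylase (-0.88 ± 0.22), lost its call without AAF/PH animal 1, AAF/PH animal 3, rapamycin animal 1 or rapamycin animal 2 (adjusted p = 0.091 to 0.187). Of the list 1 member fell without AAF/PH animal 1 or 3, and 15 rose without rapamycin animal 3.

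The growth hormone axis held the same contrast of members. Igfals, the acid-labile subunit that carries IGF in plasma, read 45.8, 28.0 and 23.8 in AAF/PH liver and 227, 198 and 128 in the foci (2.52 ± 0.26). The growth hormone receptor (Ghr) read 125, 87.2 and 77.8 against 361, 348 and 140 (1.46 ± 0.30). Igfbp1, a binding protein that restrains IGF and rises with liver injury, read 230, 1322 and 874 against 94.0, 185 and 77.2 and fell by 2.54 ± 0.50. Without AAF/PH animal 3 its adjusted p was 0.059. In all, 2 of 16 genes of the axis rose and 2 fell, and 4 rose without rapamycin animal 3. The other fall, in the receptor Igf2r (-0.99 ± 0.25), was lost without any of the AAF/PH animals or rapamycin animal 1 (adjusted p = 0.067 to 0.146). The call of Ghr was lost without AAF/PH animal 2, AAF/PH animal 3 or rapamycin animal 1 (adjusted p = 0.055, 0.071 and 0.064).

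Bile acid genes gave 6 rises and 0 falls among 21, with a median of 0.86. Slc10a1, the main importer of bile acids from portal blood, read 44.8, 51.7 and 25.1 in AAF/PH liver and 725, 746 and 288 in the foci (3.80 ± 0.34). Nr0b2, the repressor also known as SHP that bile acids induce, read 12.1, 20.1 and 22.6 against 169, 250 and 74.2 (3.05 ± 0.39), above normal liver at 41.7 to 64.1. Baat, which joins bile acids to amino acids, read 65.6, 34.2 and 31.3 against 245, 208 and 87.2 (1.99 ± 0.35). Cyp7a1, the rate-limiting enzyme of bile acid synthesis, did not pass the test. It read 134, 124 and 55.7 against 58.5, 73.9 and 37.2 (-0.84 ± 0.34, adjusted p = 0.26), and it is named outside the rule, after its values were seen. Without rapamycin animal 3, 15 of the 21 rose.

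Secreted proteins of hepatocytes included the largest rise of all. Serpina3c, a serine protease inhibitor, read 187, 25.7 and 61.6 in AAF/PH liver and 2551, 2652 and 1531 in the foci, a difference of 5.03 ± 0.48 (adjusted p = 4.2e-05). Normal liver held 3653 to 4208, and AAF/PH liver was lower than normal by 5.88 ± 0.48 on the log2 scale. Complement and coagulation factors gave 5 rises and 0 falls among 28, with a median of 0.66. Klkb1, the plasma prekallikrein gene, read 36.1, 31.7 and 24.0 against 175, 190 and 86.4 (2.23 ± 0.27). That list counted 20 rises without rapamycin animal 3, 3 without AAF/PH animal 2, and 2 without AAF/PH animal 3, rapamycin animal 1 or rapamycin animal 2. Acute phase genes were mixed, with 2 rises and 2 falls among 22. Orm1, an acute phase glycoprotein, read 3948, 3727 and 4301 in AAF/PH liver and 1705, 1780 and 1718 in the foci, which overlapped normal liver (-1.20 ± 0.21). With rapamycin animal 3 left out, 6 acute phase genes rose.

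Of 10 fetal liver genes 2 fell and 0 rose in rapamycin foci, with a median of -0.22. Afp, the fetal serum protein alpha-fetoprotein, read 623, 203 and 719 in the AAF/PH livers and 47.1, 60.6 and 38.4 in the rapamycin foci, and fell by 3.23 ± 0.36 (adjusted p = 0.00011). Normal liver held 49.8 to 69.2, so the foci overlapped it. Dlk1, a Notch-related surface protein of hepatoblasts, read 182, 55.7 and 110 against 33.1, 26.9 and 44.1 (-1.61 ± 0.33), and its adjusted p without AAF/PH animal 3 was 0.060.

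Biliary and oval cell markers gave 8 falls and 1 rise among 21, with a median of -0.73. Dmbt1, a secreted scavenger protein of ductular cells, read 236, 280 and 271 in AAF/PH liver and 56.5, 51.3 and 33.7 in the foci (-2.50 ± 0.25). Tspan8, a tetraspanin of epithelia, read 22.8, 23.9 and 29.5 against 10.5, 11.6 and 9.24 (-1.28 ± 0.17). Tnfrsf12a, the TWEAK receptor through which oval cells are stimulated, read 121, 120 and 147 against 70.5, 72.4 and 62.0 (-0.92 ± 0.17). None of the 3 overlapped between the groups. Ggt1, gamma-glutamyl transferase, an enzyme of ductal cells that foci are also known for, rose by 1.22 ± 0.29. It read 36.7, 40.4 and 42.8 against 95.1, 147 and 57.2, and its adjusted p was 0.083 to 0.10 without any single animal other than rapamycin animal 3.

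The defining ductal markers did not all fall. Krt19, the ductal keratin, read 65.3, 73.2 and 119 in AAF/PH liver and 78.3, 110 and 44.2 in the foci, with overlap (-0.19 ± 0.45, adjusted p = 0.97), and both tissues passed the test against normal liver at 16.9 to 25.4. Epcam overlapped at 37.2 to 65.3 and 16.2 to 38.1 (-0.81 ± 0.32, adjusted p = 0.25), and Krt7 differed by 0.12 ± 0.21. Cd24 read 208, 182 and 283 against 108, 162 and 56.7 and passed narrowly (-1.14 ± 0.30, adjusted p = 0.048), with an adjusted p of 0.077 to 0.230 without any of the AAF/PH animals or rapamycin animal 1 and a difference of -0.74 without rapamycin animal 3. Spp1, osteopontin, passed likewise (-1.76 ± 0.45, adjusted p = 0.043), with 205 units in AAF/PH animal 2 and 32.9 and 55.6 in the others, and without that animal its difference was -1.0 (adjusted p = 0.059). Spp1 also missed the threshold without AAF/PH animal 3, rapamycin animal 1 or rapamycin animal 2, at 0.084 to 0.174. The falls on this list numbered 4 without AAF/PH animal 3 or rapamycin animal 1, 5 without rapamycin animal 2, and 11 without rapamycin animal 3.

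Targets of p53 were among the genes that fell. Of 21 targets of p53, the transcription factor of DNA damage, 6 fell and 1 rose, with a median of -0.52. Cdkn1a, the inhibitor of cyclin-dependent kinases known as p21, read 852, 605 and 786 in AAF/PH liver and 172, 170 and 57.3 in the foci (-2.64 ± 0.33). Mdm2, the ligase that degrades p53, read 231, 121 and 237 against 62.2, 62.3 and 39.9 (-1.81 ± 0.27). Phlda3 and Tnfrsf10b, an inhibitor of Akt and a death receptor, fell by 2.12 ± 0.25 and 2.03 ± 0.23. The foci overlapped normal liver in Tnfrsf10b, at 19.3 to 24.0 against 17.9 to 23.8. Dcxr, a xylulose reductase of hepatocytes, was the member that rose (1.66 ± 0.32), and its adjusted p was 0.058 without AAF/PH animal 3. When rapamycin animal 3 was left out, 8 fell and 2 rose, while the median shrank to -0.21. Mgmt, the DNA repair protein that removes alkyl groups from guanine, was on no list and read 494, 448 and 453 against 132, 120 and 45.2 (-2.38 ± 0.32).

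Among the 35 lists, that of stellate cells and matrix had the most falls. Of its 26 genes 19 fell and 0 rose, beside 1.86% of all genes called lower, and the median was -1.26. Tagln, the actin-binding transgelin of contractile cells, read 272, 292 and 426 in the AAF/PH livers and 46.4, 49.3 and 35.7 in the rapamycin foci, and fell by 2.90 ± 0.22 (adjusted p = 9.4e-06). Col1a1, the main fibrillar collagen, read 316, 2029 and 571 against 126, 103 and 121 (-2.62 ± 0.45). Col4a1, a basement membrane collagen, read 211, 249 and 297 against 62.7, 62.8 and 54.4 (-2.06 ± 0.17). The rapamycin foci lay within a narrow band in all 3, below every AAF/PH liver. Fbn1, the microfibril protein fibrillin, and Col3a1 fell by 1.48 ± 0.19 and 2.11 ± 0.25. Lama5, a laminin chain of epithelial basement membranes, which was on no list, fell by 2.52 ± 0.21, from 166, 111 and 213 to 26.9, 26.4 and 29.1.

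Acta2, the actin of activated stellate cells and smooth muscle, fell by 1.37 ± 0.29, with an adjusted p of 0.070 and 0.091 without AAF/PH animals 2 and 3. Desmin (Des) overlapped between the groups (-0.59 ± 0.26, adjusted p = 0.32). The summed level of the 26 genes was 5689 to 9989 in AAF/PH liver, 2178 to 3585 in rapamycin foci and 3647 to 4165 in normal liver. The count of falls was 11 without AAF/PH animal 2 and 20 without rapamycin animal 3. Among 14 targets of TGF beta and YAP, signals of matrix and of organ size, 0 passed the test, 7 had an unadjusted p under 0.05, and the median was -0.44.

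The largest fall of all was in Pln, phospholamban, the inhibitor of the calcium pump known from heart and smooth muscle. It read 207, 223 and 260 in AAF/PH liver and 16.9, 13.7 and 25.5 in the foci (-3.66 ± 0.25, adjusted p = 3.7e-06). Abcb1b, the P-glycoprotein that exports drugs from cells, read 1184, 1104 and 1280 against 143, 191 and 57.1 and fell by 3.35 ± 0.34. All 3 rapamycin animals were above normal liver, at 38.2 to 55.1. Other exporters rose. Abcc3, which passes glucuronides to the blood and is an NRF2 target, read 75.2, 82.5 and 96.0 against 349, 451 and 148 (1.76 ± 0.31). Of 14 multidrug exporters 2 rose and 2 fell, with a median of -0.05. The other rise, Abcc4 (0.66 ± 0.17), lost its call without any single animal other than rapamycin animal 3, and 5 members rose without that animal.

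Macrophage genes gave 4 falls and 0 rises among 22, with a median of -0.47. Marco, a scavenger receptor of resident liver macrophages, read 159, 172 and 132 in AAF/PH liver and 52.4, 49.2 and 58.0 in the foci (-1.53 ± 0.23), below normal liver at 93.0 to 190. The mannose receptor Mrc1 read 117, 109 and 115 against 50.1, 71.3 and 43.8 (-1.08 ± 0.19), and Adgre1, an adhesion receptor of macrophages, fell by 1.08 ± 0.19. The general marker Cd68 overlapped between the groups (-0.42 ± 0.35). Lyz2, lysozyme, fell by 1.98 ± 0.45, and its adjusted p was 0.121 and 0.084 without AAF/PH animals 2 and 3. The summed level of the 22 genes was 2461 to 2787 in AAF/PH liver, 2071 and 2251 in rapamycin animals 1 and 2, and 1222 in animal 3. Without rapamycin animal 3, 5 of the 22 fell and 1 rose, and the median was -0.25. Of 10 genes of MHC class II, 0 passed the test, 1 had an unadjusted p under 0.05 and the median was -0.46. Both tissues held more of them than normal liver, by list medians of 1.5 in AAF/PH liver and 0.99 in rapamycin foci.

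Interferon-stimulated genes gave 7 rises and 0 falls among 27, with a median of 1.12. Mx2, an antiviral GTPase, read 11.9, 14.8 and 19.3 in AAF/PH liver and 159, 70.8 and 42.7 in the foci (2.38 ± 0.47). Oasl, of the oligoadenylate synthetase family, read 18.8, 15.2 and 19 against 96.9, 68.9 and 40.1 (1.88 ± 0.36). Usp18, the protease that removes ISG15 from proteins, read 9.42, 9.84 and 9.77 against 110, 57.0 and 19.4 (2.35 ± 0.53, adjusted p = 0.021). Rapamycin animal 1 had the highest level in each of the 3, and animal 3 the lowest, still above AAF/PH liver. Ubd, a ubiquitin-like protein induced by interferon gamma and TNF, read 72.7, 39.5 and 70.8 against 1613, 703 and 308 (3.58 ± 0.49), with placebo foci at 460 to 1378 and normal liver at 148 to 186. The list counted 21 rises without rapamycin animal 3, 4 without AAF/PH animal 1, 2 without AAF/PH animal 2, AAF/PH animal 3 or rapamycin animal 1, and 3 without rapamycin animal 2. Without any single animal other than rapamycin animal 3, Usp18 had an adjusted p of 0.063 to 0.103. Lymphocyte genes, listed beside these, gave 0 calls among 22, with a median of -0.07. Of them 4 had an unadjusted p under 0.05, where 1913 of all 14497 genes did. Of the 22, 5 had a mean log2 level of at least 5 in any group, where 7670 of all 14497 genes did. These values thus describe mostly dim probe sets and do not show equal numbers of lymphocytes.

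**Figure D4:**
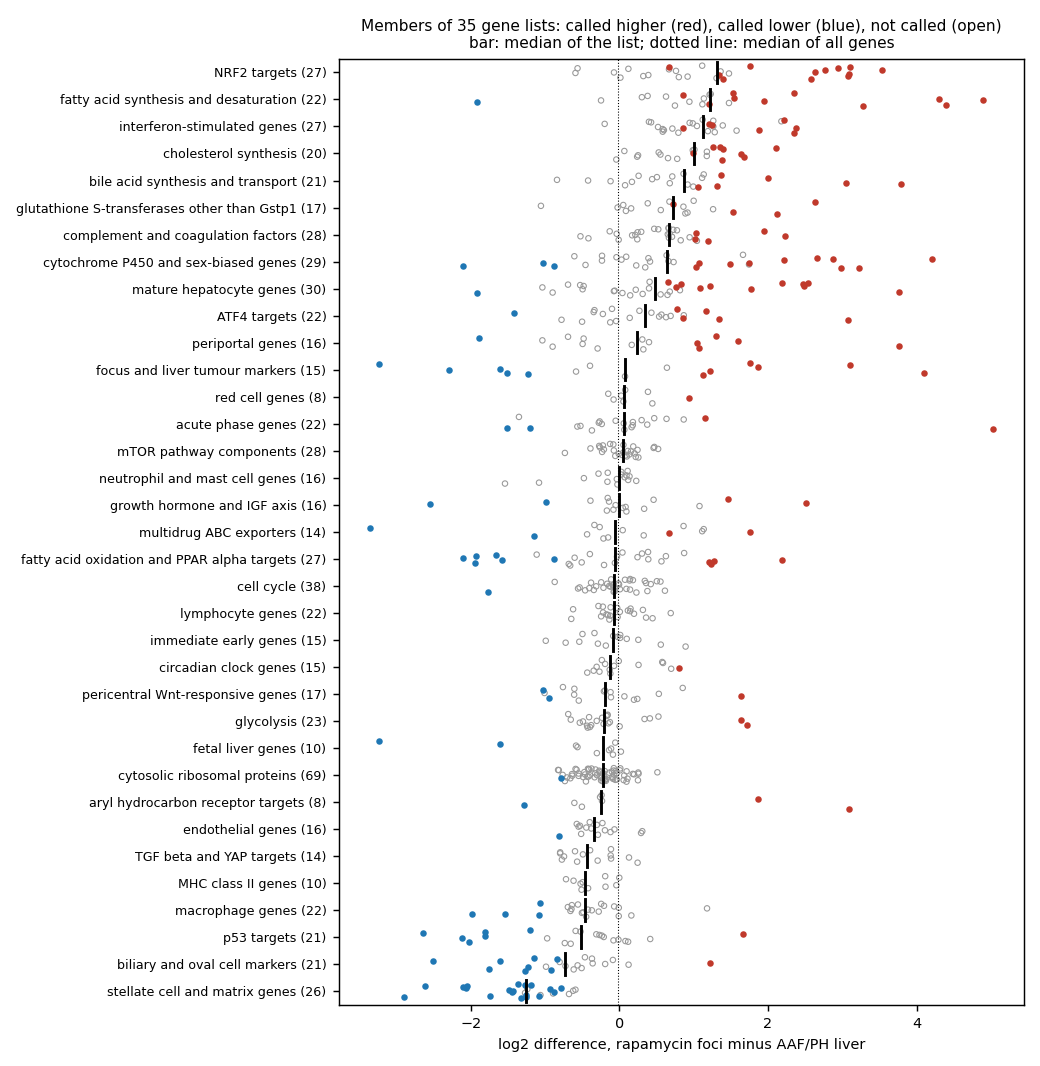
Log2 difference between rapamycin foci and AAF/PH liver (horizontal axis) for each measured member of 35 gene lists, ordered by list median, with the number measured in brackets. Called members are filled, bars mark list medians and the dotted line the median of all genes; list medians run from 1.31 for NRF2 targets to -1.26 for stellate cell and matrix genes.

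**Figure D5:**
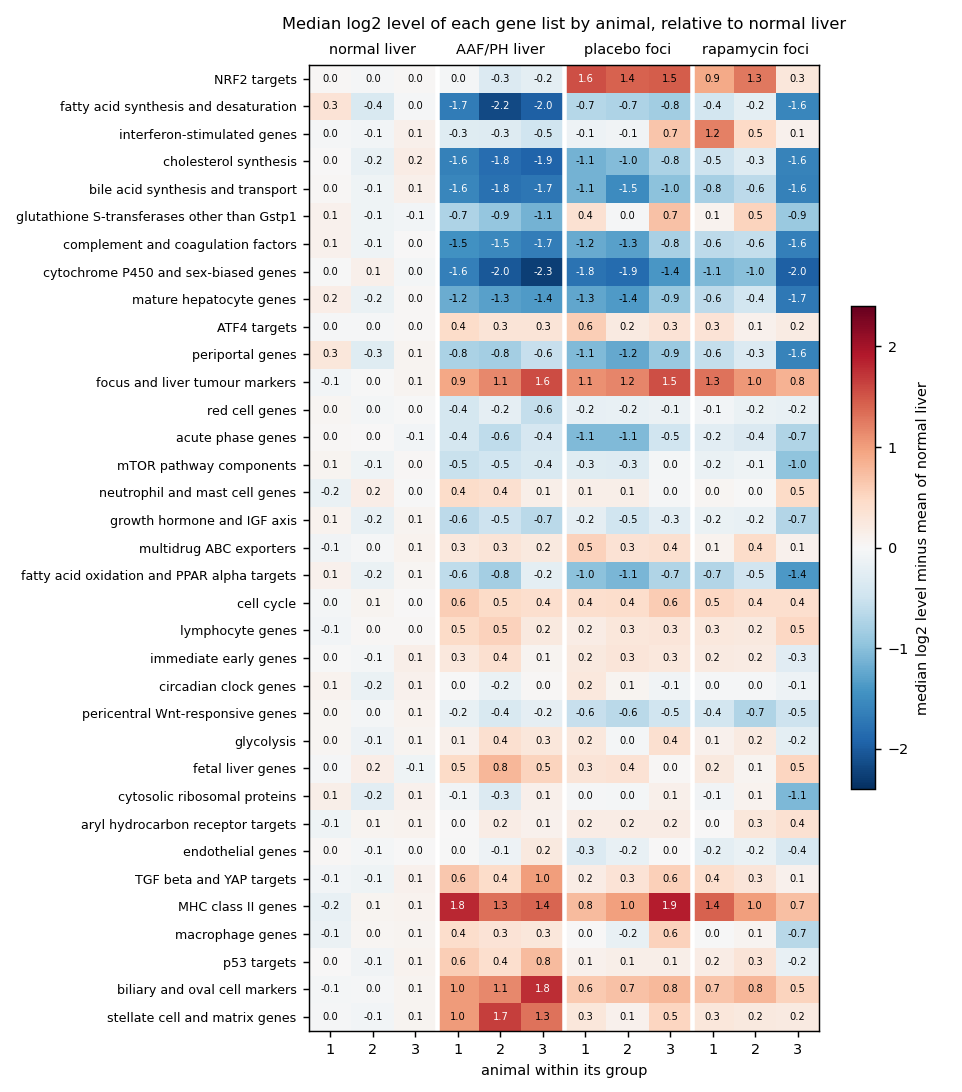
Median log2 level of each gene list in each of the 12 animals, relative to the mean of normal liver, as colour and number. For NRF2 targets the AAF/PH livers lie at -0.05 to -0.32 and rapamycin animals 1, 2 and 3 at 0.92, 1.27 and 0.27; for cholesterol synthesis rapamycin animal 3, at -1.60, lies nearer to the AAF/PH livers (-1.62 to -1.92) than to animals 1 and 2 (-0.50 and -0.31).

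The heat map of list medians by animal shows where rapamycin animal 3 went with its group and where it did not. Its median was with rapamycin animals 1 and 2 for stellate cell and matrix genes (0.21, beside 0.27 and 0.24, and 1.02 to 1.67 in AAF/PH liver) and for biliary and oval cell markers (0.54, beside 0.66 and 0.79, and 1.02 to 1.78). For mature hepatocyte genes it lay at -1.71, below the AAF/PH livers at -1.18 to -1.36, where animals 1 and 2 were at -0.63 and -0.43. Bile acid genes, at -1.61 beside -1.56 to -1.79, and cytochrome P450 genes, at -1.96 beside -1.64 to -2.26, had the animal within the AAF/PH range.

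Whether the same foci differ with and without rapamycin was asked of the groups in which the pellet alone differed. The comparison called 0 of 14497 genes (0%), with 483 at an unadjusted p under 0.05 and a smallest adjusted p of 0.512. The 5 genes of largest moderated t were Cyp4a3, Atf5, Mmp12, Inhbe and Tceal9. Cyp4a3, a fatty acid hydroxylase, read 263, 357 and 497 in placebo foci and 973, 780 and 953 in rapamycin foci, without overlap (1.32 ± 0.22, adjusted p = 0.51). In AAF/PH liver it read 1751, 1353 and 1911, so that rapamycin foci were lower by 0.88 ± 0.22 and placebo foci by 2.20 ± 0.22. Atf5, a stress-responsive transcription factor, read 293, 417 and 394 in placebo foci and 716, 744 and 699 in rapamycin foci (0.98 ± 0.18, adjusted p = 0.52). A low count does not show that the foci were alike. The test called 2 genes without placebo animal 3, Cyp4a3 (1.55, adjusted p = 0.0459) and Dbp (-1.67, adjusted p = 0.0211), and 3 without rapamycin animal 3, Cyp2a2 (1.38, adjusted p = 0.0147), Cyp3a23-3a1 (1.86, adjusted p = 0.0213) and Inhbe (1.17, adjusted p = 0.0213).

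List medians against AAF/PH liver are given for both kinds of foci, since the comparisons share the AAF/PH livers. NRF2 targets had a median of 1.85 in placebo foci and 1.31 in rapamycin foci, fatty acid synthesis 1.08 and 1.21, interferon-stimulated genes 0.55 and 1.12, and stellate cell and matrix genes -1.06 and -1.26. Biliary and oval cell markers were at -0.24 in placebo and -0.73 in rapamycin foci. None of these list shifts between the 2 kinds of foci was tested, and 0 of their members passed the test between them.

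Genes of the mTOR pathway itself gave 0 calls among 28 between rapamycin foci and AAF/PH liver, with 1 at an unadjusted p under 0.05 and a median of 0.05. Mtor read 66.9, 51.5 and 65.9 in AAF/PH liver and 87.2, 84.0 and 42.9 in the foci (0.16 ± 0.25, adjusted p = 0.94). Ddit4, the stress-induced inhibitor of mTOR, read 62.9, 119 and 78.0 against 71.3, 96.7 and 53.2 (-0.22 ± 0.25, adjusted p = 0.87). Both overlapped between the groups. Without rapamycin animal 3, 3 of the 28 rose, beside 10.4% of all genes. The list median was -0.01 under quantile normalization, and -0.05 and -0.13 without rapamycin animals 1 and 2. Ribosomal protein genes, whose translation depends on mTOR, gave 1 fall and 0 rises among 69, beside 1.86% of all genes called lower. Under quantile normalization 23 fell and 0 rose (median -0.39), beside 5.18% of all genes called lower. With array weights 8 rose and 8 fell (median 0.07), beside 13.3% of all genes called higher and 8.11% called lower. The 1 fall first counted among the 69, Rps2 (-0.79 ± 0.20), was called with its brightest probe set and not with the mean of its probe sets (-0.16, adjusted p = 0.854). The median of the 69 genes was -0.23, and 0.11 without rapamycin animal 3, when 7 rose and 2 fell, beside 10.4% and 3.79% of all genes.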

How the data were processed

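Transcript levels were measured on Affymetrix arrays, and the 8 arrays of rapamycin foci and AAF/PH liver were tested with the 6 others in 1 fit. The deposited table gave linear intensity values between 2.14 and 14038. Partek 6.6 and RMA appear in the submitters' processing notes, without a stated role or order. The design had assumed deposited log2 values, so logarithms were computed here, without a pseudocount, before rapamycin animal 3 was reduced to the mean of its 3 arrays. Of the probe sets 15209 had 1 gene symbol, 306 several and 13311 none. Genes were taken at the probe set of highest mean. Names were matched to GRCr8 for 14471 of 14497 genes.

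The fit used R 4.3.3, limma 3.58.1 (lmFit and eBayes, 2-sided, 8 residual and 6.38 prior degrees of freedom) and the package data.table (1.17.8), was tested on simulated data, and took Benjamini-Hochberg adjusted p under 0.05 as called. Array weights used the gene-by-gene method. The number of arrays limits the precision, and no batch is given in the sources used here. The labels name biological replicates.

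Members and the 35 gene lists were chosen with earlier results of these data known. Named genes are Gstp1, the 15 largest rises and falls without overlap, up to 4 called members of a list and those against its majority, cell type markers, Mtor, Ddit4, and 5 genes of largest moderated t against placebo. Some of the markers, Sox9, Stab2 and Hba-a2 among them, were not analysed here. Alternatives were other scalings, a filter on dim genes, fits of both groups alone, other handling of animal 3 and of probe sets, array weights, a replicate block and leaving out each animal.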

Additional observations from a re-analysis of the deposited data

How the results depend on the processing

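No gene called between rapamycin foci and AAF/PH liver turned its direction under any alternative run. Under quantile normalization 1415 genes were called (664 higher, 751 lower). With array weights, in which rapamycin animal 3 had a weight of 0.110, 3102 were called (1927 higher, 1175 lower). A fit of both groups alone called 204 (110 higher, 94 lower), with fewer residual degrees of freedom and a spread taken from these groups only. The share called higher was 53.4% as reported, 46.9% under quantile normalization, 59.2% with median centring and 60.3% with scale normalization. Leaving out 1 animal gave 295 to 2056 calls, 156 to 1506 higher and 139 to 550 lower. Between rapamycin and placebo foci 541 genes were called with array weights and 0 to 3 without 1 animal. The labels do not say that animals of the same number were paired, and their deviations from the group means correlated at 0.086, -0.416 and -0.397; with the animal number as a replicate block 417 genes were called.

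Of the 35 list medians 10 turned sign under at least 1 alternative, none of them above 0.24 in size as reported. Quantile normalization gave -0.13 for acute phase genes, and array weights gave 0.07 for ribosomal protein genes and 0.08 for fatty acid oxidation. Among single named genes, those that turned sign had no call. Array weights gave 0.024 for Krt19, -0.13 for Krt7, 0.13 for Lyve1, -0.13 for Mpo and 0.21 for Tceal9. Median centring gave 0.0073 for Cd3e and 0.037 for Tceal9, scale normalization 0.048 for Tceal9, and quantile normalization -0.16 for Hbb. The second capture of animal 3 alone gave -0.012 for Hbb, -0.037 for Mpo and 0.11 for Tceal9, and its linear mean 0.0058 for Tceal9. Without 1 animal the differences ran from -0.49 to 0.17 for Krt19, -0.0074 to 0.34 for Krt7, -0.68 to 0.036 for Cd68, -0.23 to 0.18 for Cd3e, -0.38 to 0.19 for Lyve1, -0.069 to 0.15 for Hbb, -0.15 to 0.28 for Mpo, -0.024 to 0.49 for Mtor, -0.44 to 0.030 for Ddit4 and -0.38 to 0.48 for Tceal9. The causes were not tested. Among the 140 named genes 47 lost their call in the fit of both groups alone. Array data give no depth, and 3 animals a group limit what could be called.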

Other observations

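Cell cycle genes, which oval cells and growing foci both use, gave 1 fall and 0 rises among 38, with a median of -0.07 against AAF/PH liver. The 1 call is 2.63% of the list, near the 1.86% of all genes called lower. The fall was Tyms, thymidylate synthase, at 146, 114 and 183 in AAF/PH liver and 44.5, 61.0 and 28.6 in the foci (-1.76 ± 0.26). Both tissues lay above normal liver, by list medians of 0.5 in AAF/PH liver and 0.43 in rapamycin foci. Most members were dim, and 14 of the 38 had a mean log2 level of at least 5 in any group. The 10th percentile of log2 levels over all genes was 2.66 to 2.82 in normal liver, 2.86 to 3.00 in AAF/PH liver and 2.76 to 3.20 in rapamycin foci. Whether these medians reflect cell division or the dim end of the arrays was not tested. Without rapamycin animal 3, 3 of the 38 rose, beside 10.4% of all genes called higher without it. ATF4 targets, the amino acid stress response, gave 5 rises and 1 fall among 22, with a median of 0.35. Shmt2, the mitochondrial serine enzyme, rose by 1.35 ± 0.26, and Ddit3, the stress factor CHOP, read 121, 129 and 150 against 44.0 to 55.8 and fell by 1.42 ± 0.21. The rises numbered 9 without rapamycin animal 3 and 3 without any other single animal of the groups compared.

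Lists of liver zones were mixed. Of 16 periportal genes 5 rose and 1 fell, with a median of 0.24. Under quantile normalization 5 rose and 6 fell, beside 4.58% of all genes called higher and 5.18% called lower. Asl, another urea cycle enzyme, read 553, 523 and 523 in AAF/PH liver and 170, 202 and 87.2 in the foci. It fell by 1.89 ± 0.27, where Otc rose by 3.76 ± 0.42. Against normal liver Asl was higher in AAF/PH liver by 0.86 ± 0.27 and lower in rapamycin foci (-1.03 ± 0.27). The periportal rises numbered 2 without AAF/PH animal 1, AAF/PH animal 3, rapamycin animal 1 or rapamycin animal 2, and without the last of these the median was -0.05. Of 17 pericentral genes 1 rose and 2 fell, or 5 fell without rapamycin animal 3. Rgn, regucalcin, rose by 1.63 ± 0.26, and Slc1a2, a glutamate transporter, read 51.5, 50.9 and 51.5 against 24.7, 21.4 and 35.8 (-0.94 ± 0.19), with an adjusted p of 0.051 without rapamycin animal 1.

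Glycolysis gave 2 rises among 23, in Pklr, the liver pyruvate kinase (1.72 ± 0.30), and Pfkfb1 (1.63 ± 0.33), and 4 without rapamycin animal 3. The call of Pfkfb1 was lost without AAF/PH animal 2 (adjusted p = 0.052). Of 8 aryl hydrocarbon receptor targets Nqo1 and Aldh3a1 rose and Cyp1b1 fell (-1.29 ± 0.27), the last with an adjusted p of 0.063 to 0.078 without AAF/PH animal 2, AAF/PH animal 3 or rapamycin animal 1. Among 15 clock genes Npas2 was called (0.80 ± 0.20), beside 2.14% of all genes called higher. Its adjusted p was 0.058 to 0.172 without any single animal other than rapamycin animal 3. Without that one 3 clock genes rose. Immediate early genes gave 0 calls among 15, and 3 rises without rapamycin animal 3. Of them 3 had an unadjusted p under 0.05, where 1913 of all 14497 genes did. Neutrophil and mast cell genes gave 0 calls among 16 with 3 at that p, and 2 falls without rapamycin animal 3. Of these 16, 1 had a mean log2 level of at least 5 in any group. Endothelial genes gave 1 fall among 16, Tie1 (-0.81 ± 0.17), beside 1.86% of all genes called lower. That call was lost without AAF/PH animal 3 or rapamycin animal 1 (adjusted p = 0.076 and 0.075). Red cell genes gave 1 rise among 8, Hbb-b1 (0.94 ± 0.24), beside 2.14% of all genes called higher, while Hbb differed by 0.02 ± 0.26. The call of Hbb-b1 was lost without AAF/PH animal 1, AAF/PH animal 3, rapamycin animal 1 or rapamycin animal 2 (adjusted p = 0.051 to 0.154).

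Some genes of the largest falls have no tie to the lists. Npy, the neuropeptide of nerves, read 103, 176 and 1076 in AAF/PH liver and 30.4, 31.7 and 42.2 in the foci (-2.97 ± 0.57). Without AAF/PH animal 3 its difference was -1.97, and in a fit of both groups alone its adjusted p was 0.087. Lgals2, a galectin, read 246, 241 and 338 against 66.4, 58.1 and 44.1 (-2.29 ± 0.24). Atp6v1d, a subunit of the proton pump of lysosomes, read 214, 152 and 182 against 35.6, 48.4 and 15.5 (-2.60 ± 0.36).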
